A study of Mus musculus with 39 samples.

Results

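A set of 10 genes known to mark lipid-associated macrophages (Trem2, Gpnmb, Mmp12, Clec4d, Atp6v0d2, Lgals3, Cd9, Spp1, Itgax and Fabp5) was followed in mouse interscapular brown fat, 10 of 24116 gene entries measured. They were chosen by values of these same libraries, since macrophage markers had been seen to be higher in Cre-labelled than in control brown fat at 30 °C, so that comparison describes the genes and does not test them. RNA came from whole interscapular brown adipose tissue of male C57BL/6J mice, and all of them carried the floxed Bcl6 gene. Controls without Cre and Cre-labelled mice were each kept at 22 °C or at 30 °C, all on chow with a regular light-dark cycle, which gave 4 groups. The Cre-labelled mice carried Cre driven by the promoter of Ucp1, which is active in brown adipocytes, so the allele is meant to recombine in adipocytes and not in macrophages. Each group had 4 libraries, 16 in total. No label states that the 4 libraries of a group are separate animals, and p-values measure only the spread between these samples. Ages were not stated in the labels.

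Lipid-associated macrophages are tissue macrophages that gather around dying or overfilled adipocytes, take up their lipid and break it down in lysosomes. Their program is best known from white fat in obesity and from atherosclerotic plaques. It depends on TREM2, a surface receptor for lipids and lipoproteins that signals through the adaptor TYROBP (DAP12) and the kinase SYK. Mice at 22 °C burn brown-fat lipid to keep warm, whereas at 30 °C they need little extra heat and brown adipocytes fill with lipid.

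Normalised counts, the unit of all levels below, are read counts that the authors scaled between libraries. Their totals ran from 12064137 to 13516936 in controls and from 10122739 to 12867466 in Cre-labelled libraries at 22 °C, and from 9387313 to 9975035 and from 8867615 to 9479495 at 30 °C. Raw depth is unknown and counting error could not be given. Bcl6 RNA was higher, not lower, in the Cre-labelled libraries (2671 to 3927 against 764 to 1838 at 22 °C, 3269 to 5159 against 1020.1 to 2340.5 at 30 °C). The values cover the whole gene and do not show whether the floxed part was lost, so groups are named by their label. All 16 markers of brown adipocytes were detected in every group, and Ucp1 had 3761 normalised counts or more in each library. None of 22 general macrophage markers was at 0 throughout a group either.

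Promoters were read for the members because most of them moved together. The RefSeq table of build GRCm38.p6 held 8 of the 10 genes, all but Atp6v0d2 and Fabp5. In the 250 bases before each start, both strands were searched for 3 short motifs. TGANTCA is a loose form of the site of AP-1 (Fos and Jun proteins), which usually has C or G at the N. GAGGAAG is a core of sites for PU.1, the lineage factor of myeloid cells. TCACGTG or TCATGTG is the E-box bound by MITF, TFEB and TFE3, which drive lysosomal genes. The 2 promoters below alone among the members' windows held 2 of the 3 motifs. That of Mmp12 is shown for its E-box, and that of Trem2 was chosen after the search was seen. The Trem2 stretch (chr17:48346151-48346400, plus strand) has, in capitals, the PU.1 letters on the opposite strand at position -41 counted from the start and the AP-1 letters at position -9. The N in the Trem2 match is A, so it is not the usual AP-1 site. The Mmp12 stretch before its second start (chr9:7347124-7347373, plus strand) has, in capitals, the E-box on the opposite strand at position -83 and the AP-1 letters at position -44.
Trem2: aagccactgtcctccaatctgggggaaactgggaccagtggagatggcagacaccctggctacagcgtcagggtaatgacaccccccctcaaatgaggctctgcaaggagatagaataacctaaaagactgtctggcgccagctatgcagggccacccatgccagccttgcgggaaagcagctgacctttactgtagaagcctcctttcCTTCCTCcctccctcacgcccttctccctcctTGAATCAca
Mmp12: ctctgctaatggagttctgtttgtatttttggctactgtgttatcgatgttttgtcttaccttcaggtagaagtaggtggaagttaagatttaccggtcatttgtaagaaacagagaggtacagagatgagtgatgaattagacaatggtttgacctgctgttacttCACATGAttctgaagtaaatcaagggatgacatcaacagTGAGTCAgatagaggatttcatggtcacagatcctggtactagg
AP-1 letters were also present at Itgax (position -56), with G at the N as in Mmp12. With Trem2 included, 3 of 8 genes held the loose form, against 5.50% of the 10480 measured genes with a promoter in the table. The PU.1 letters occurred at 4 of 8 genes, against 13.2%: Trem2, Spp1 (position -113), Clec4d (opposite strand, -241) and the first start of Mmp12 (opposite strand, -87). The E-box occurred at 1 of 8, against 7.81%. Per promoter the shares were 4.53% for AP-1, 10.9% for PU.1 and 6.50% for the E-box, of 13363 windows. No matches overlapped each other in a member's window. A match describes letters in a window and shows no binding.

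Across the 4 groups, 8 of the 10 genes had group means in one order, lowest in controls at 22 °C, then Cre-labelled at 22 °C, controls at 30 °C and Cre-labelled at 30 °C. Of all genes kept for testing, 17.8% had that order. The exceptions were Mmp12, whose means at 22 °C were nearly equal (34.6 in controls and 34.2 in Cre-labelled libraries), and Fabp5, which was lowest in controls at 30 °C. Between neighbours in that order, control and Cre-labelled libraries at 22 °C overlapped for all but 2 genes (Gpnmb and Itgax). Every control library at 30 °C lay above every Cre-labelled library at 22 °C for 8 genes (all but Spp1 and Fabp5), as for 13.8% of all genes. At 30 °C the control and Cre-labelled libraries were apart for Lgals3, Cd9 and Fabp5 and overlapped for the other 7 genes, in each case through Cre-labelled library 3. Whether more macrophages or more RNA per macrophage gave a higher level cannot be told apart in RNA of whole tissue.

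**Figure D1:**
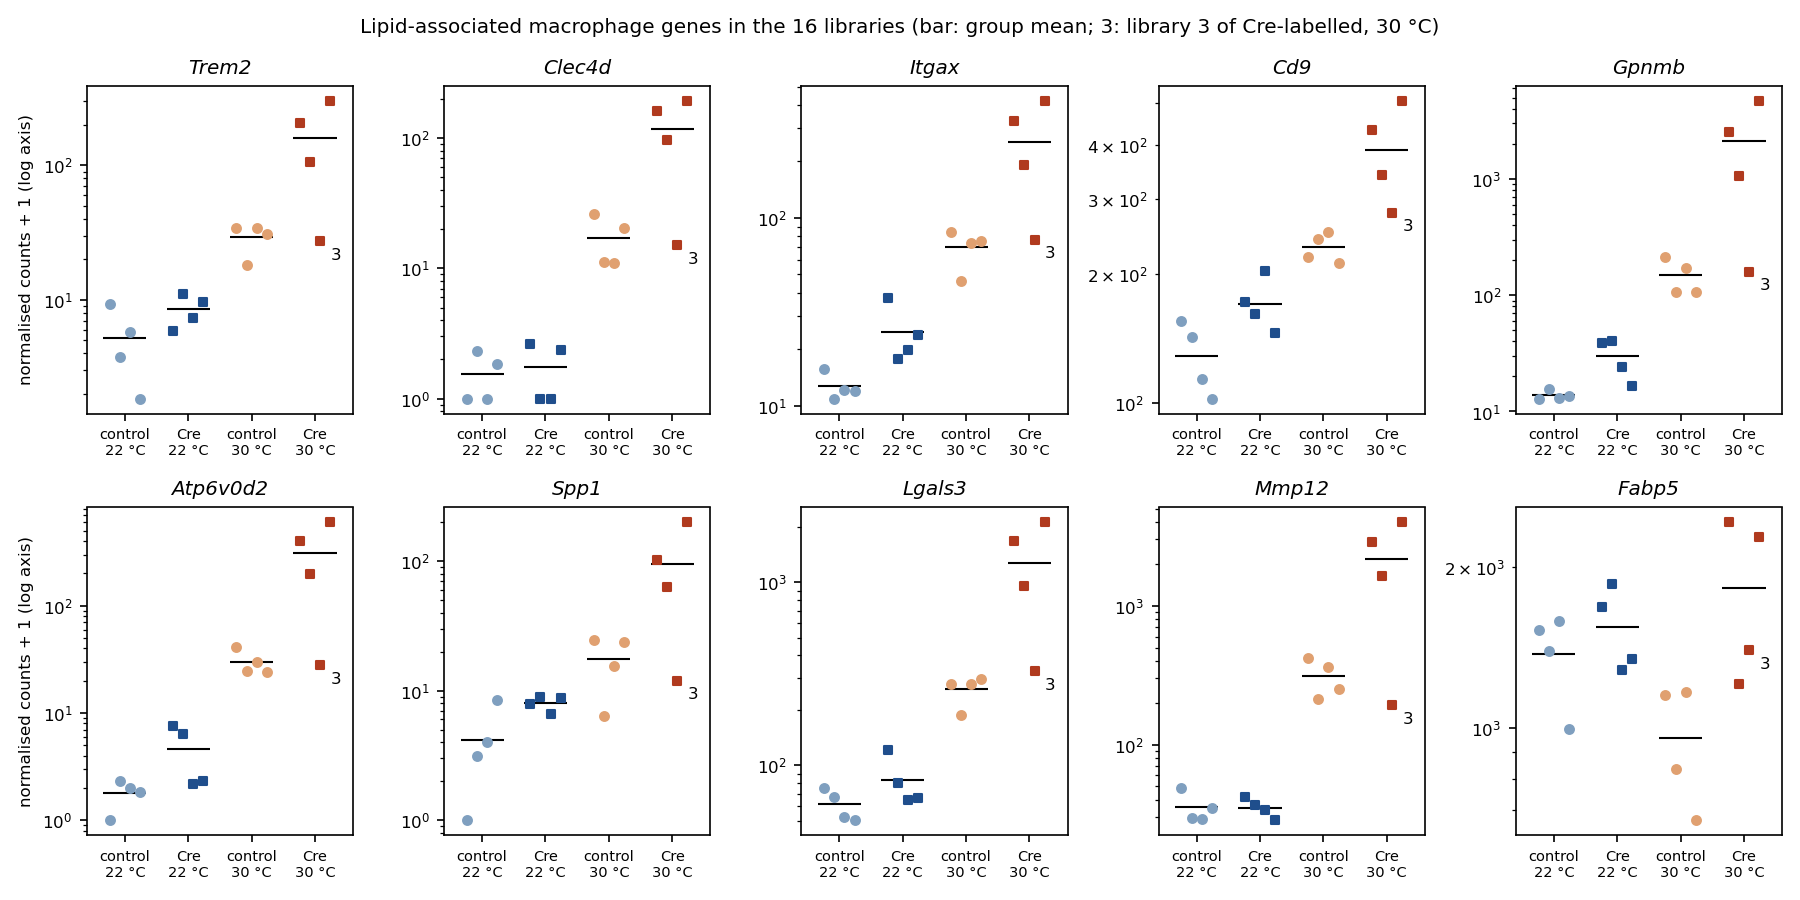
Normalised counts plus 1 (log axis, a scale of its own for each gene) of the 10 genes in the 16 libraries, 4 per group, with a bar at each group mean; the digit marks Cre-labelled library 3 at 30 °C. In 9 of the 10 genes the other 3 Cre-labelled libraries at 30 °C lie above it, and Fabp5 is the exception.

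Among the receptors, Trem2 (chr17:48346401-48352276) encodes the lipid receptor itself. It had 8.23, 2.73, 4.80 and 0.839 normalised counts in control libraries 1 to 4 at 22 °C and 4.88, 10.0, 6.38 and 8.61 in the Cre-labelled ones. At 30 °C it had 33.4, 17.3, 33.5 and 29.7 in controls and 207, 106, 26.3 and 301 in Cre-labelled libraries. The 22 °C groups overlapped at low levels, and Cre-labelled library 3 lay among the warm controls while the other 3 were well above them.

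Clec4d (chr6:123262107-123275268) encodes a C-type lectin that recognises glycolipids and pairs with Mincle. It was listed at 0 in 2 of 4 control and 2 of 4 Cre-labelled libraries at 22 °C, with 1.33 and 0.83 in the other 2 controls and 1.62 and 1.38 in the other 2 Cre-labelled libraries. At 30 °C its values were 25.3, 10.2, 9.93 and 19.3 in controls and 162, 96.4, 14.0 and 192 in Cre-labelled libraries. It was thus at or near 0 in every library at 22 °C and at 9.93 or more in every library at 30 °C.

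Itgax (chr7:128129526-128150657) encodes CD11c, the integrin alpha subunit that pairs with the beta2 chain Itgb2 and marks macrophages that gather in inflamed fat. Its control values at 22 °C were 14.7, 9.90, 11.1 and 11.0, against 36.3, 16.6, 18.8 and 22.8 in Cre-labelled libraries, and the groups did not overlap. At 30 °C it had 82.7, 45.1, 72.6 and 74.1 in controls and 327, 189.9, 75.6 and 419.7 in Cre-labelled libraries. There the overlap again came from library 3.

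Cd9 (chr6:125460266-125494760) encodes a tetraspanin, a membrane organiser that many cell types make. It had 155, 141, 113 and 102 normalised counts in controls and 171, 161, 202 and 145 in Cre-labelled libraries at 22 °C, and 218, 240.0, 249.8 and 211 against 433, 339, 277 and 506 at 30 °C. The Cre-labelled libraries at 30 °C were all above the controls, but the highest was only 1.82 times the lowest. For Gpnmb the same ratio was 29.6.

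Gpnmb (chr6:49036518-49058182) encodes a transmembrane glycoprotein of the phagolysosome. Its control values at 22 °C were 11.9, 14.7, 12.0 and 12.7, and the Cre-labelled values 37.6, 39.2, 23.1 and 15.6. At 30 °C controls had 210.3, 105, 171 and 107, and Cre-labelled libraries had 2550.1, 1065, 158 and 4684. The 22 °C groups were apart, while at 30 °C library 3 lay inside the range of the controls and the other 3 far above it.

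Atp6v0d2 (chr4:19876838-19922566) encodes the d2 subunit of the proton pump that acidifies lysosomes, known from osteoclasts and foamy macrophages. It was listed at 0 in 1 control at 22 °C and had 1.34, 1.01 and 0.846 in the other 3, against 6.59, 5.37, 1.18 and 1.29 in the Cre-labelled libraries. At 30 °C it had 40.3, 23.6, 28.8 and 23.0 in controls and 403, 198, 26.8 and 598 in Cre-labelled libraries. As for Trem2, library 3 stayed inside the range of the controls.

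Of the secreted products, Spp1 (chr5:104435111-104441053) encodes osteopontin, a ligand of integrins and CD44. It was listed at 0 in 1 control at 22 °C, with 2.11, 3.02 and 7.42 in the other 3, and had 6.95, 7.97, 5.63 and 7.80 in the Cre-labelled libraries. At 30 °C controls had 23.6, 5.34, 14.5 and 22.9, and Cre-labelled libraries 102, 62.3, 11.0 and 198. Its lowest warm control lay within the range of the 22 °C libraries, which no other gene showed. For Fabp5 the lowest warm control, at 670.2, lay below every 22 °C library.

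Lgals3 (chr14:47373860-47386167) encodes galectin-3, which binds sugar chains at the cell surface and on damaged lysosomes. It had 74.5, 66.6, 51.0 and 49.3 normalised counts in controls and 120.5, 78.9, 63.4 and 65.7 in Cre-labelled libraries at 22 °C. At 30 °C it had 278, 187, 279 and 295 in controls and 1675, 957, 326 and 2127 in Cre-labelled libraries. The 22 °C groups overlapped, while at 30 °C even library 3 lay above every control.

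Mmp12 (chr9:7344397-7360461) encodes macrophage elastase, which degrades elastin in the matrix. Its values at 22 °C were 48.0, 28.8, 28.0 and 33.7 in controls and 41.0, 35.5, 32.8 and 27.6 in Cre-labelled libraries, one common range. At 30 °C they were 420.1, 213, 362 and 249 in controls and 2882, 1648, 190.3 and 3978 in Cre-labelled libraries. Library 3 fell below every warm control for this gene alone among the 10.

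Fabp5 (chr3:10012585-10016610) encodes a fatty acid carrier of the cytosol that is also made by adipocytes and endothelial cells, and it has near-identical pseudogenes, so its count is uncertain. It had 1519.7, 1389, 1585 and 994 in controls and 1679, 1861, 1280.2 and 1345 in Cre-labelled libraries at 22 °C. At 30 °C it had 1149.6, 835, 1164 and 670.2 in controls and 2423, 1207, 1395 and 2276 in Cre-labelled libraries. Warm controls were lower than cold controls on average here, unlike the other 9 genes, and on this pattern it stands outside the set that its label names.

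The comparison of genotypes at 22 °C takes its means from libraries kept at 22 °C alone and was the one tested for these genes. Its spread was estimated from all 16 libraries, those kept at 30 °C included. The intervals and p-values are therefore not independent of the libraries on which the genes were chosen. Over the 10 genes the median SD was 71.4% of the mean in Cre-labelled libraries at 30 °C. At 22 °C it was 23.5% in controls and 31.4% in Cre-labelled libraries. The spread of the warm libraries thus enters the intervals, which can be wider than the 22 °C values of a gene alone would give. At 22 °C, 9 of 10 means were higher in Cre-labelled libraries, with a median log2 difference of 0.66 over the 10 genes beside -0.0042 over all 13176 genes kept. All differences here are of log2(value + 1), which understates changes of low genes. No gene passed the threshold of an adjusted p under 0.05 in limma's moderated test, while 5.51% of all genes passed as higher and 4.69% as lower. At an unadjusted p under 0.05, Cd9 and Itgax were higher, as were 13.2% of all genes. The 2 genes whose groups did not overlap compare with 6.38% of all genes.

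The clearest of these were Cd9 at 169.7 ± 24.2 against 128 ± 24.7 normalised counts (n = 4 in each group, SD), which is 0.42 on the log2 scale (95% interval 0.04 to 0.79, limma adjusted p = 0.149), and Itgax at 23.6 ± 8.81 against 11.7 ± 2.11, a difference of 0.91 (0.06 to 1.76, limma adjusted p = 0.166). Gpnmb had 28.9 ± 11.4 against 12.8 ± 1.30 and a log2 difference of 1.02 (-0.42 to 2.47, limma adjusted p = 0.378). For Spp1, Atp6v0d2 and Trem2 the log2 differences were 1.33 (-0.23 to 2.88), 1.20 (-0.31 to 2.71) and 0.91 (-0.36 to 2.19). These 4 intervals reach from slightly below 0 to changes larger than the estimate. A difference was thus not resolved in this fit, with its spread from all 16 libraries, rather than shown to be absent. Lgals3 differed by 0.41 (-0.45 to 1.27), Fabp5 by 0.17 (-0.32 to 0.67), Clec4d by 0.14 (-1.31 to 1.58) and Mmp12 by 0.00 (-1.31 to 1.32). Trem2, Clec4d, Atp6v0d2 and Spp1 had group means under 10 at 22 °C and entered the test only through their values at 30 °C, which leaves 6 of 10 genes above that level in both 22 °C groups. With the 22 °C libraries fitted alone, 6 genes were kept, and the smallest limma adjusted p was 0.126.

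**Figure D2:**
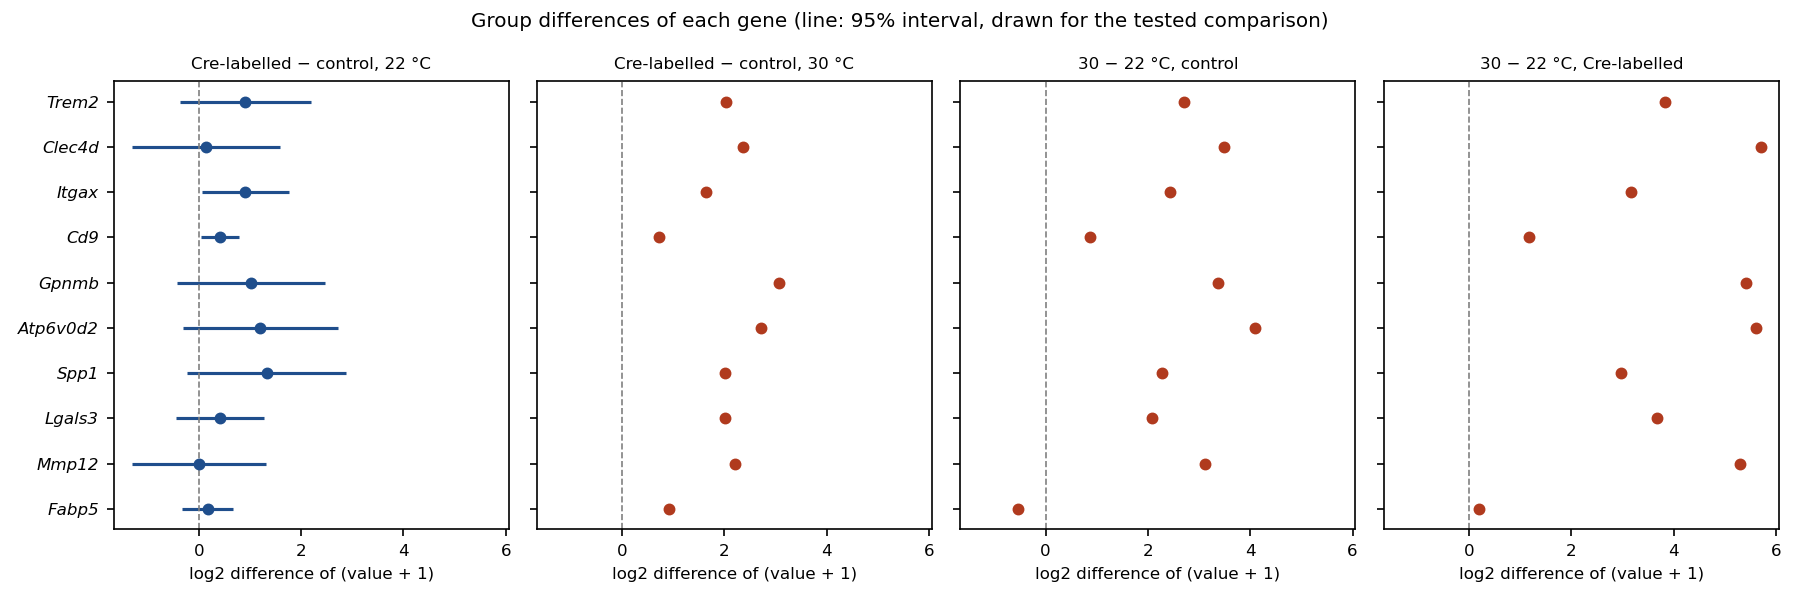
Differences of log2(value + 1) between groups for the 10 genes, 1 panel per comparison; lines are 95% intervals, drawn only for the comparison at 22 °C, which was the one tested. The points at 22 °C lie between 0.00 and 1.33, and in the panel of 30 against 22 °C in controls Fabp5 is the one point below 0.

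At 30 °C all 10 means were higher in Cre-labelled libraries, and log2 differences ran from 0.72 for Cd9 to 3.07 for Gpnmb, with a median of 2.02. The level of Gpnmb was 2114 ± 1976 in Cre-labelled libraries against 148 ± 51.5 in controls (SD, n = 4 each), that of Mmp12 2175 ± 1629.7 against 311 ± 96.6 and that of Lgals3 1271 ± 793 against 259.8 ± 49.1. The SD of Cre-labelled libraries was 26.0 to 93.5% of the mean, and that of the controls 7.86 to 51.7%. All but Spp1, 9 genes, passed as higher in limma, beside 5.65% of all genes higher and 6.85% lower, and 3 did not overlap, beside 10.5%. Since values of this comparison chose the genes, nothing is read from these counts. They rest on single libraries: 3 genes passed without Cre-labelled library 1 or without library 4, and 4 without control library 4.

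The spread among the Cre-labelled libraries at 30 °C had a common form. Libraries 1, 2 and 4 lay above every control for all 10 genes, which held for 12.7% of all genes. This grouping was made after the values were seen, in the comparison that chose the genes. Library 3 lay within the control range for 6 genes (Trem2, Gpnmb, Clec4d, Atp6v0d2, Spp1 and Itgax), above it for Lgals3, Cd9 and Fabp5, and below it for Mmp12. The order of the 4 libraries, highest in 4, then 1, 2 and 3, was the same in 9 of 10 genes, and 6.21% of all genes had it. The exception was Fabp5, with library 1 highest and library 2 lowest.

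The mean of the other 3 Cre-labelled libraries over the control mean at 30 °C was 18.7-fold for Gpnmb, 13.8-fold for Atp6v0d2, 9.27-fold for Clec4d and 9.12-fold for Mmp12. For Spp1 it was 7.28-fold, for Trem2 7.19-fold, for Lgals3 6.10-fold and for Itgax 4.55-fold. Fabp5 and Cd9 had the smallest ratios, 2.06 and 1.85. Library 3 was left out after it was seen to be low, which raises these ratios. With all 4 libraries the ratio was 14.3 for Gpnmb and 1.69 for Cd9. In library 3 the corresponding ratios ran from 0.612 for Mmp12 to 1.46 for Fabp5.

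**Figure D3:**
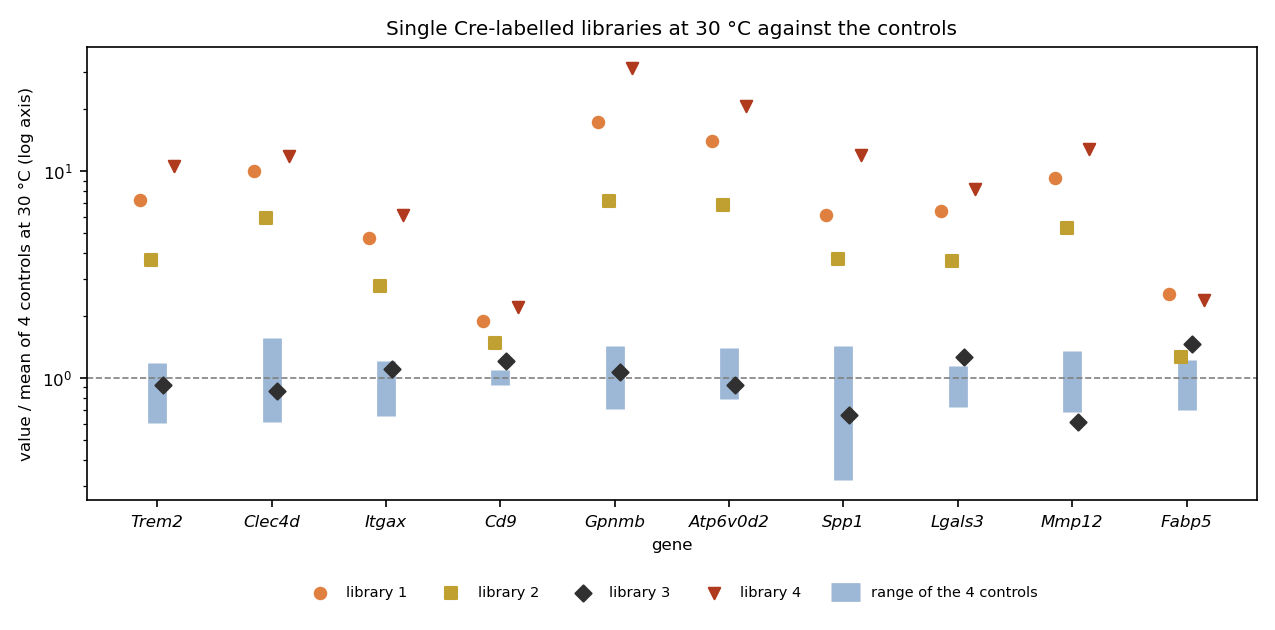
Value of each gene in each Cre-labelled library at 30 °C divided by the mean of the 4 controls at 30 °C (log axis); bars give the range of the 4 controls and the dashed line their mean. Library 3 lies in or near the bar for every gene, from 0.612 to 1.46, and the other 3 libraries lie above the bar for all 10 genes.

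General macrophage markers were lowest in library 3 among the 4 Cre-labelled libraries at 30 °C, with summed normalised counts of 8260 against 16974, 11354 and 20339 in libraries 1, 2 and 4, and above the 4786 to 6129 of the controls. Of 22 general macrophage markers, 20 were above every warm control in library 3, as were 20, 19 and 20 in libraries 1, 2 and 4. Of 12 measured markers of tissue-resident macrophages, all 12 were above every control in library 3, against 6, 6 and 3 in libraries 1, 2 and 4. Below every control were 1, 0, 0 and 4 of the 12 in libraries 1 to 4, beside 31.0, 24.3, 29.2 and 31.4% of all genes. Of the 10 lipid-associated genes, 3 were above every control in library 3 and 10 in each of the others. Over all genes the shares above every control were 31.8% in library 3 and 29.3, 24.1 and 29.6% in the others. Mpeg1, a pore-forming protein of phagocytes, had 608 normalised counts in library 3 against 310 to 427 in controls, and Mrc1, the mannose receptor of resident macrophages, had 432 against 224 to 284.

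Other cells also differed between these libraries. Summed normalised counts of 26 skeletal muscle genes were 40118 and 33971 in Cre-labelled libraries 2 and 3 at 30 °C, 1673 and 6600 in libraries 1 and 4, and 14770 to 25017 in the controls. None of the 26 genes was at 0 throughout a group. Libraries 2 and 3, which had the higher muscle sums, were the 2 lowest of the 4 for all 10 lipid-associated genes. Library 2 was still above every control for all 10. The part of the muscle signal in these values was not tested. Over all genes 4.69% passed as lower in Cre-labelled libraries at 22 °C and 6.85% at 30 °C. With temperature 22.7% were lower at 30 °C in controls and 17.7% in Cre-labelled libraries. Of 16 brown adipocyte markers, 5 passed as lower in Cre-labelled libraries at 22 °C and 8 at 30 °C. In either genotype 12 of the markers were lower at 30 °C than at 22 °C (limma, none higher in any of the 4 comparisons). Their summed normalised counts were 150575 to 221489, 96467 to 156656, 69116 to 77648 and 37996 to 44683 in the 4 groups in the order above, opposite to that of most members, and their part was not tested either.

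A score for each library, the mean log2 value of a list after centring each gene, set the members beside the general markers. The macrophage score was -1.32 to -0.62 in controls and -0.50 to -0.13 in Cre-labelled libraries at 22 °C, -0.00 to 0.36 in controls at 30 °C, and 1.40, 0.94, 0.82 and 1.59 in Cre-labelled libraries 1 to 4 at 30 °C. The lipid-associated score went from -1.90 to -1.75 and -1.47 to -0.86 at 22 °C, to 0.07 to 0.93 in warm controls and 3.28, 2.44, 0.57 and 3.73 in warm Cre-labelled libraries. Thus the macrophage score of library 3 lay above every control, and its lipid-associated score among them.

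**Figure D4:**
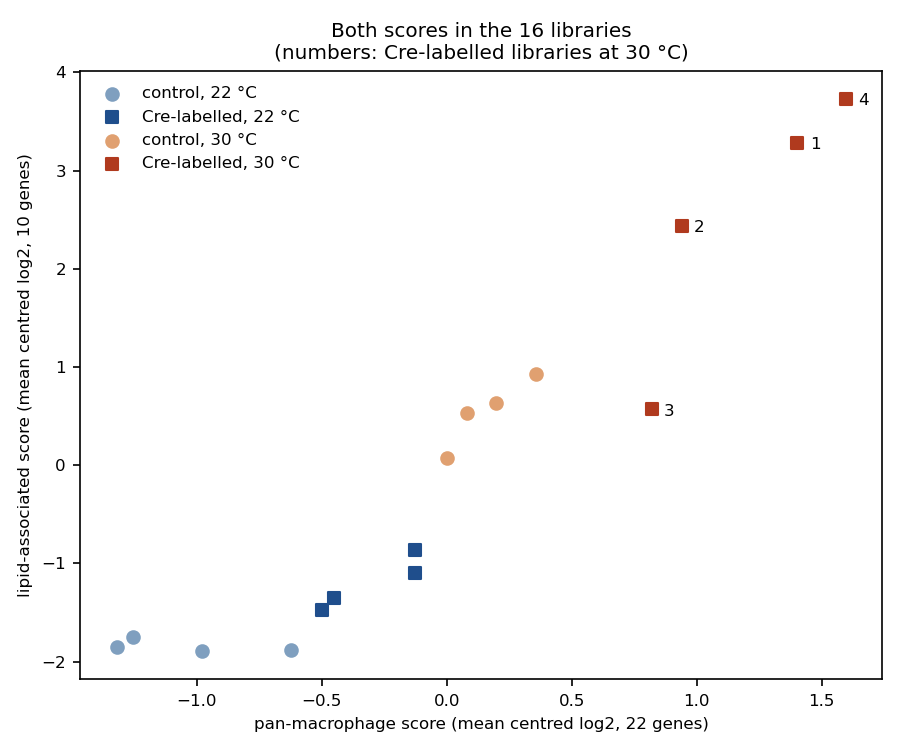
Score of the 10 lipid-associated genes against that of 22 general macrophage markers (each the mean centred log2 value) in the 16 libraries; digits number the Cre-labelled libraries at 30 °C. Library 3 has a macrophage score of 0.82, above all controls, and a lipid-associated score of 0.57, inside their range of 0.07 to 0.93.

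Relative to the mean log2 level of the 22 general markers, which was 6.14, 6.88, 7.34 and 8.37 in the 4 groups in the order above, the members' differences were also read at both temperatures. At 22 °C the genotype difference was above that of the markers for 5 genes and below it for 5, with a median of -0.08. At 30 °C it was above for 8 genes and below for Cd9 and Fabp5, with a median of 0.99 and, without library 3, of 1.61. Gpnmb stood highest, at 2.03, followed by Atp6v0d2 at 1.68 and Clec4d at 1.33. These are descriptions, since the marker list was compiled with results of these libraries known.

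At 22 °C, 12 of 22 general markers passed as higher in limma and 1, Cd14, as lower. At 30 °C, 17 passed as higher and 0 as lower. Beside these counts and those of the lists below, 5.51% of all genes passed as higher at 22 °C and 4.69% as lower. The shares at 30 °C were 5.65% and 6.85%. Since macrophage genes were chosen on the comparison of genotypes at 30 °C, its values are given here and below as a description, without p-values, for every gene. C1qb, a complement subunit made by macrophages, was 261 ± 60.8 against 144 ± 41.2 at 22 °C (log2 difference 0.87, limma adjusted p = 0.00876) and 779 ± 187 against 336 ± 9.67 at 30 °C (log2 difference 1.18). Csf1r, the receptor for the growth factor CSF1, rose at 22 °C by 0.72 (limma adjusted p = 0.00323), and Cd14, a lipopolysaccharide co-receptor, fell by 1.18 (limma adjusted p = 0.00112). Of the 12 resident markers, Stab1 and Retnla rose at 22 °C (0.76 and 1.58, limma adjusted p = 0.00724 and 0.0170) and 0 fell. Their count of 2 was 1 without control library 3 or Cre-labelled library 1, 7 without control library 1, and 5 with libraries scaled to equal totals. At 30 °C 1 resident marker passed as higher (Mrc1, log2 difference 0.55), and 0 did without control libraries 1, 2 or 4 or Cre-labelled libraries 1, 3 or 4, each left out alone. The general count of 12 at 22 °C fell to 5, 4, 3 and 7 without control library 2, control library 3, Cre-labelled library 1 and Cre-labelled library 4 at 22 °C. It was 5 with quantile normalisation and 4 with the 2 groups fitted alone. The summed normalised counts of the 22 genes were 2120 to 3205, 3701 to 4742, 4786 to 6129 and 8260 to 20339 in the 4 groups in the order above. Their part in the members' differences was not tested.

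Housing temperature was compared within each genotype. These comparisons use the warm libraries on which the genes were chosen and are described without p-values. In controls, 30 °C against 22 °C gave log2 differences of 4.09 for Atp6v0d2, 3.48 for Clec4d, 3.37 for Gpnmb, 3.11 for Mmp12 and 2.70 for Trem2. Itgax differed by 2.43, Spp1 by 2.28, Lgals3 by 2.09 and Cd9 by 0.86, and Fabp5 by -0.54. As higher, 9 genes passed, beside 22.9% of all genes (22.7% lower), and 8 did not overlap, beside 19.9%.

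In Cre-labelled libraries the same comparison gave 5.70 for Clec4d, 5.60 for Atp6v0d2, 5.41 for Gpnmb and 5.30 for Mmp12. It gave 3.82 for Trem2, 3.68 for Lgals3, 3.17 for Itgax, 2.97 for Spp1, 1.16 for Cd9 and 0.20 for Fabp5. As higher, 9 passed, beside 15.0% of all genes (17.7% lower), and 9 did not overlap, beside 16.2%. The Clec4d and Atp6v0d2 differences start from values near 0 at 22 °C and depend on the pseudocount of 1. With a pseudocount of 10 they were 1.27 and 1.83 in controls. The 2 temperature comparisons share no library with each other, but each shares 1 group with the genotype comparison at 30 °C.

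Genes that act with TREM2 were also measured, 14 of 15 listed. At 22 °C 3 of 14 passed as higher in limma and none as lower, and at 30 °C 5 of 14 passed as higher and none as lower. Tyrobp, the adaptor that carries the TREM2 signal, had 109, 90.5, 110 and 106 normalised counts in controls at 30 °C and 441, 246, 206 and 530 in Cre-labelled libraries, higher by 1.66 on the log2 scale (SE 0.35). Unlike Trem2 itself, Tyrobp was above every control in library 3. Syk, the kinase downstream, rose at 22 °C by 1.07 (84.3 ± 14.8 against 39.7 ± 5.97, limma adjusted p = 0.00987), and at 30 °C it was 294 ± 135 against 110 ± 16.6 (log2 difference 1.31). Ms4a6d and Ms4a7, membrane proteins of the MS4A family found in macrophages, were higher at 30 °C by 1.48 and 1.33. Inpp5d, a lipid phosphatase that limits this signal, and Ms4a4a rose at 22 °C by 0.67 and 1.95 (limma adjusted p = 0.0282 and 0.0422). The count at 22 °C fell to 1 without control library 3 or without Cre-labelled libraries 1 or 3, to 1 with the 2 groups fitted alone and to 0 with quantile normalisation. That at 30 °C fell to 3 without control library 2 or without Cre-labelled libraries 1 or 4.

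Most other subunits of the pump to which Atp6v0d2 belongs did not pass between genotypes. Of 20 other measured subunits, 1 passed as higher at 30 °C in Cre-labelled libraries (limma, none lower). It was Tcirg1, the a3 subunit that osteoclasts also use, with 853 ± 194 against 509 ± 48.8 (log2 difference 0.72). The count of 1 was 2 to 5 with other scalings, with the 2 groups fitted alone, without the 2 sparsest libraries or without control library 1 at 22 °C. At 22 °C Tcirg1 rose (0.67, limma adjusted p = 0.0220), and Atp6v1h, a subunit of the soluble part, fell by 0.45 (limma adjusted p = 0.0234). Neither passed at 22 °C without control library 3 or without Cre-labelled libraries 1 or 3, and without Cre-labelled library 2 there were 5 subunits lower. With the 2 groups fitted alone 0 passed, and without the 2 sparsest libraries 4 were lower. In controls, 22.9% of all genes were higher at 30 °C than at 22 °C and 22.7% lower. Of the 20 subunits, 3 were higher and 12 lower in that comparison. With libraries scaled to equal totals that split was 5 higher and 6 lower, and with quantile normalisation 1 and 9. Of 3 measured MiT/TFE factors (Mitf, Tfeb and Tfe3), which control lysosomal genes, 0 passed in limma at either temperature between genotypes.

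Another 32 genes tied to the lipid-associated program include many that adipocytes also make. Of these, 6 passed as higher and 0 as lower at 30 °C in Cre-labelled libraries. With quantile normalisation 10 were higher. Among the 6 were Cd68 (log2 difference 1.71), a lysosomal protein of macrophages, and Ctsl, a lysosomal protease (0.45). Abca1, a cholesterol exporter, and Cd63, a lysosomal tetraspanin, were higher by 0.73 and 0.81. At 22 °C 0 passed as higher and 4 as lower, the lysosomal genes Lamp1, Lipa and Creg1 (-0.69, -0.81 and -0.57, limma adjusted p = 0.000611, 0.00862 and 0.0194) and the apolipoprotein gene Apoc1 (-0.50, limma adjusted p = 0.0410). The 4 lower genes became 2 without Cre-labelled library 1 or 3 and 7 without Cre-labelled library 2, with 1 higher. Libraries scaled to equal totals gave 2 higher and 2 lower, and leaving out the 2 sparsest libraries 2 higher and 7 lower. Of all genes, 22.9% were higher and 22.7% lower at 30 °C than at 22 °C in controls. Of the 32 genes, 9 were higher and 18 lower there. This split was 12 and 9 with equal totals, 10 and 8 with quantile normalisation, and 5 and 15 without control library 4 at 30 °C.

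Over the 16 libraries the 9 members other than Fabp5 followed each other closely, with Pearson r of their log2 values from 0.81 to 0.99 over 36 pairs (median 0.96). These correlations describe 16 libraries that share 4 group means and carry no p. Fabp5 had a median r of 0.25 with the other 9. For deviations from the group means its median r was 0.56. On that measure the medians of the other 9 ran from 0.61 for Cd9 to 0.82 for Lgals3. The pair of Cd9 and Spp1 had 0.16. The non-members closest to the mean of the 10 were Adam8 (r = 0.99), a metalloprotease of leukocytes, Cd53 (0.98), a leukocyte tetraspanin, and Cybb (0.98), the NADPH oxidase subunit of phagocytes. They were followed by Capg, Myof, C3ar1, Lyz2, Itgb2, Lcp1 and Mpeg1, down to r = 0.97. The gene closest to Itgax was Itgb2, its integrin partner (r = 0.99), and the closest to Trem2 was Capg (0.98). The closest to Fabp5 were Ube2n (0.87), a ubiquitin-conjugating enzyme, Rcan1 (0.82) and Cytl1 (0.78).

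The list of 3022 BCL6 binding sites that the authors called in control brown fat at 30 °C assigned 0 peaks to the 10 genes. Measured from the gene's ends to the centre of the nearest peak, Atp6v0d2 was closest, at 63.0 kb, followed by Cd9 at 82.5 kb, Fabp5 at 92.0 kb and Spp1 at 102 kb. The other 6 genes lay 205 to 776 kb away. Within 100 kb there was a peak for 3 of 10 members and for 44.7% of 13160 measured genes with a position, and within 50 kb for 0 of 10 and 31.6%. The chromatin was from whole tissue, and binding in macrophages was not measured apart.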

How the data were processed

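RNA from 16 libraries of whole brown fat was used. The deposited table holds normalised counts, a signal per gene and library that the authors scaled between libraries. Per the submitters' processing notes kallisto, DESeq2 and build mm10 were used, while versions, annotation and filters are not stated there. Because the values are not whole, depth is unknown. The BCL6 peaks were made with Bowtie2 and HOMER, per the submitters' processing notes, and the deposited score of a peak is the authors' and was not used. The other deposited peak columns are positions and distances (unit "other") as the authors' annotation gives them. ChIP samples were otherwise not analysed here.

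All 16 sample columns were used and 0 left out. Of 24116 genes, 13176 averaged 10 or more in the 16 libraries and were kept, all 10 members among them. Using limma 3.58.1 (R 4.3.3), group means of log2(value + 1) were estimated for the 4 groups together, and variances were moderated along a mean trend (4.83 prior and 12 residual degrees of freedom). The procedure was tested on simulated data. Benjamini-Hochberg adjustment covered every gene kept, and an adjusted p under 0.05 counted as passing. The members and all lists were chosen with earlier results of these data known. The rule for named genes took every member, up to 4 non-members of a list with the smallest adjusted p in each genotype comparison, and the 10 genes closest to the members' mean and 3 closest to each member by Pearson r. Some of these are named. The rule put promoters with an E-box first, which named that of Mmp12; the Trem2 promoter was chosen after the search was seen. RefSeq positions and promoters are of GRCm38.p6, the build called mm10. Alternatives were 2 other pseudocounts, no filter, a higher filter, 2 other scalings, a replicate block, no trend, a robust fit, the groups compared alone, the 2 sparsest libraries left out, and each library left out in turn.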

Additional observations from a re-analysis of the deposited data

Results flagged for a closer look

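Of 40 gene and group combinations, 1 held a library far from the other 3. In controls at 30 °C, Lgals3 had 187 normalised counts in library 2 and 278 to 295 in the other 3. The gap made up 0.844 of the range of the group, above the limit of Dixon's test at 95%. Chance alone flags about 1 in 20 groups. The group lay below every Cre-labelled library at 30 °C with or without that library, since the lowest of those had 326.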

How the results depend on the processing

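No member passed the threshold at 22 °C under any of the alternatives run, and the smallest limma adjusted p were 0.0545 for Itgax and 0.0614 for Cd9. The sign of 2 members changed there: Mmp12 was -0.000576 with a pseudocount of 10, -0.21 with quantile normalisation and -0.0860 to 0.17 without single libraries, and Clec4d was -0.68 with quantile normalisation and -0.11 to 0.37 without single libraries. The members passing as higher at 30 °C numbered 3 to 10 over single libraries left out and 8 to 10 over the other alternatives.

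Scaling to equal totals shifted the median of all genes by 0.17 (genotype at 22 °C), 0.07 (30 °C), 0.43 (temperature, controls) and 0.31 (Cre-labelled). It gave 1306 genes higher and 300 lower at 22 °C (726 and 618 in the reported fit), 6574 and 1155 for temperature in controls (3012 and 2987) and 4417 and 1123 in Cre-labelled libraries (1978 and 2336). At 22 °C quantile normalisation gave 453 higher, and the groups compared alone 280 and 256. Without the 2 sparsest libraries 1153 and 1197 genes passed at 22 °C and 1331 and 1467 at 30 °C, where the groups alone gave 1131 higher. Over single libraries left out the counts were 405 to 1167 higher and 360 to 1192 lower at 22 °C, 452 to 983 and 556 to 1134 at 30 °C, 2464 to 3317 and 2608 to 3198 for temperature in controls, and 1492 to 2322 and 1833 to 2623 in Cre-labelled libraries.

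Same-numbered libraries did not deviate together (r -0.48 to 0.17), and the reported fit used no pairing. With 4 libraries per group, these values cannot show that same-numbered libraries share nothing. With a replicate block 0 members passed at 22 °C and 8 at 30 °C, and no count of members or of all genes moved by over 1.5 times. Of the resident markers, 3 in place of 2 passed at 22 °C and 2 in place of 1 at 30 °C. Normalised values hide a change in total RNA, and low values at 22 °C limit what could be seen for 4 members.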

Other observations

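Genes of osteoclasts, which share Atp6v0d2, Trem2 and Gpnmb with lipid-laden macrophages, went both ways at 30 °C: of 11 measured, 2 passed as higher in Cre-labelled libraries (Car2 and Tcirg1) and 1 as lower in limma. The lower one was Acp5, the tartrate-resistant acid phosphatase, with 928 ± 50.4 against 1373 ± 123 normalised counts (SD, n = 4 each, log2 difference -0.56). Of 11 measured growth factors and chemoattractants of macrophages, 2 passed as higher in the same comparison and 0 as lower. They were the chemokines Ccl6, with 458 ± 172 against 147 ± 20.6 (log2 difference 1.57), and Ccl9, with 386 ± 171 against 149.6 ± 28.9 (log2 difference 1.26). These are descriptions of the comparison on which the macrophage genes were chosen.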
